A study of Mus musculus with 12 samples.

Results

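The genes described here are 45 genes of the urea cycle and of amino acid catabolism, given by name and found by symbol in a liver table of 55401 genes. Of the 45, 44 passed the filter on low counts, as did 13205 genes of the whole table. They were divided by role into the urea cycle (8 genes), glutamine, glutamate and transaminases (6), aromatic amino acids (9), branched-chain amino acids (3), sulfur amino acids (8), histidine (4), serine, glycine and threonine (4), and proline and lysine (3). RNA-seq was carried out on the livers of 12 female mice aged 15 weeks, 6 of the iTgMir483 line and 6 labelled as controls. The methods of the study give a C57BL/6J background and a chow diet for both. The iTgMir483 mice carry Mir483 in a Tet-off cassette at the ubiquitously active Rosa26 locus, where a tetracycline-controlled transactivator drives it unless doxycycline is present. The selection cassette was removed by crossing with CMV-Cre mice, which delete floxed sequence in all tissues. Doxycycline was given to the mothers through pregnancy and then withdrawn, so the transgene was on from birth, and not in the liver alone. The descriptions of all 12 livers, controls included, carry the cross name CMVxmiR, and which controls carry Cre or other alleles of the cross is not given in the sources used here.

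Library totals ranged from 12244123 to 30431286 counts, and the least counted tested gene of the list had 56 counts in its poorest library. Mir483 had 0 counts in all 6 control livers, which allows at most 3 counts or 0.0986 to 0.245 CPM (counts scaled to a common library total) in the deepest and shallowest libraries, and 23.3 to 54.3 CPM in the iTgMir483 livers. These are poly(A) reads over the precursor and not the mature microRNAs. For the tissue label, the hepatocyte marker Alb (albumin) was at 93613 to 135525 CPM in controls and 35996 to 107837 CPM in iTgMir483 livers. Its log2 fold change was -0.56 ± 0.27 (edgeR adjusted p = 0.160). For Alb 4 iTgMir483 livers lay below all controls, the lowest being replicate 4. Macrophage markers were higher in iTgMir483 livers for 7 of 8 genes (Adgre1, Cd68, Clec4f, Cd5l, Lyz2, Csf1r and Ptprc), with a summed level of 316 to 465 CPM in controls and 492 to 1345 CPM in iTgMir483 livers. Neutrophil markers were higher for 3 of the 3 tested of 5 (S100a8, S100a9 and Csf3r), with summed levels of 3.26 to 5.79 and 6.90 to 24.8 CPM. Bile duct markers were higher for 3 of 6 (Krt7, Epcam and Spp1), with summed levels of 21.2 to 46.8 and 61.3 to 90.6 CPM. Of the 8 hepatocyte markers 1, the fibrinogen chain gene Fgb, was higher, and 0 were lower, with summed levels of 130801 to 176154 and 85332 to 153517 CPM. None of the 8 stellate, 8 endothelial or 5 blood cell markers was called in either direction. Their summed levels in controls and iTgMir483 livers were 322 to 440 and 373 to 470 CPM (stellate), 348 to 410 and 314 to 438 CPM (endothelial), and 132 to 242 and 86.6 to 383 CPM (blood), and 0 markers of any list were at 0 in all livers. The part of these cell types in the results below was not tested.

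Ammonia released when amino acids are broken down is toxic, and the liver converts it into urea. The cycle begins in the mitochondria of periportal hepatocytes with carbamoyl phosphate synthetase and ornithine transcarbamylase, and is completed in the cytosol by argininosuccinate synthase, argininosuccinate lyase and arginase. Transaminases and glutamate dehydrogenase feed nitrogen into it, and dedicated liver pathways remove the carbon skeletons of tyrosine, tryptophan, histidine, methionine and lysine. The branched-chain amino acids are the exception, since much of their first breakdown step takes place outside the liver. Many of these enzymes are known to rise with glucagon, glucocorticoids and dietary protein.

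The mature products of Mir483 are shown because their seeds, bases 2 to 8 in capitals, define which transcripts they could pair with. Both are encoded on the minus strand of chromosome 7 inside Igf2, miR-483-3p at chr7:142654932-142654952 and miR-483-5p at chr7:142654968-142654989 (RefSeq, GRCm38.p6).
miR-483-3p: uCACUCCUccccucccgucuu
miR-483-5p: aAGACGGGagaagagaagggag
A match to all 7 seed bases of miR-483-3p (AGGAGTG in the transcript) was present in the 3′ UTR of 1523 of 12098 tested genes with a UTR (12.6%), searched in the longest annotated UTR of each. Among the 44 tested genes of the list, 8 held 1, namely Got1, Tat, Gstz1, Bckdhb, Bhmt, Cbs, Hal and Prodh. The 3′ UTRs of the list had a median length of 769 bases against 1164 bases over all genes with a UTR. The match of miR-483-5p (CCCGTCT) was found in 394 genes (3.26%) and in 0 genes of the list. The sites in Hal, the only gene with a match among the 12 called lower below, and in Got1, the only gene of the 8 with an A opposite the first microRNA base, are shown with the match in capitals (GRCm38, Hal at chr10:93516876-93516882 on the plus strand and Got1 at chr19:43500127-43500133 on the minus strand).
Hal site: aaaaaggcAGGAGTGgtggtggg
Got1 site: cattctgcAGGAGTGatgcccac
The median log2 fold change of the 8 genes with a match was -0.25, and that of the other tested genes of the list was -0.41.

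Of the 44 tested genes 12 were lower in iTgMir483 livers, 0 were higher and 27 did not pass the adjusted p. A gene was called when its edgeR quasi-likelihood test gave an adjusted p under 0.05 over all genes tested and its fold change was over 1.5. The 12 were Cps1, Ass1, Arg1, Gpt, Hpd, Hgd, Tdo2, Kynu, Ahcy, Cth, Hal and Aass, where 2.73% of all 13205 genes tested were called lower and 8.41% were called higher. Among the 2697 genes with a mean of at least 50 CPM, a comparison added after the values were seen because these enzymes are abundant, 4.12% were called lower. On the adjusted p alone 17 of 44 were lower, against 7.33% of all genes, the further 5 being Slc25a13, Glud1, Kmo, Dbt and Amdhd1 with smaller folds. The count of 0 higher held at an unadjusted p under 0.05 with edgeR, and DESeq2 and limma-voom also called 0 higher. The sign was negative for 40 genes and positive for 4 (Fah, Bhmt, Ftcd and Aldh4a1), where it was negative for 49.2% of all genes tested and for 62.2% of those with a mean of at least 50 CPM. The median log2 fold change over the 44 was -0.39, with a range from -1.45 to 0.14, beside a median of 0.01 over all genes tested. In 8 genes every iTgMir483 liver lay below every control, where 2.83% of all genes did so. Bulk RNA cannot tell fewer cells of a type from less RNA of a gene per cell, so all values are levels in liver RNA.

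**Figure D1:**
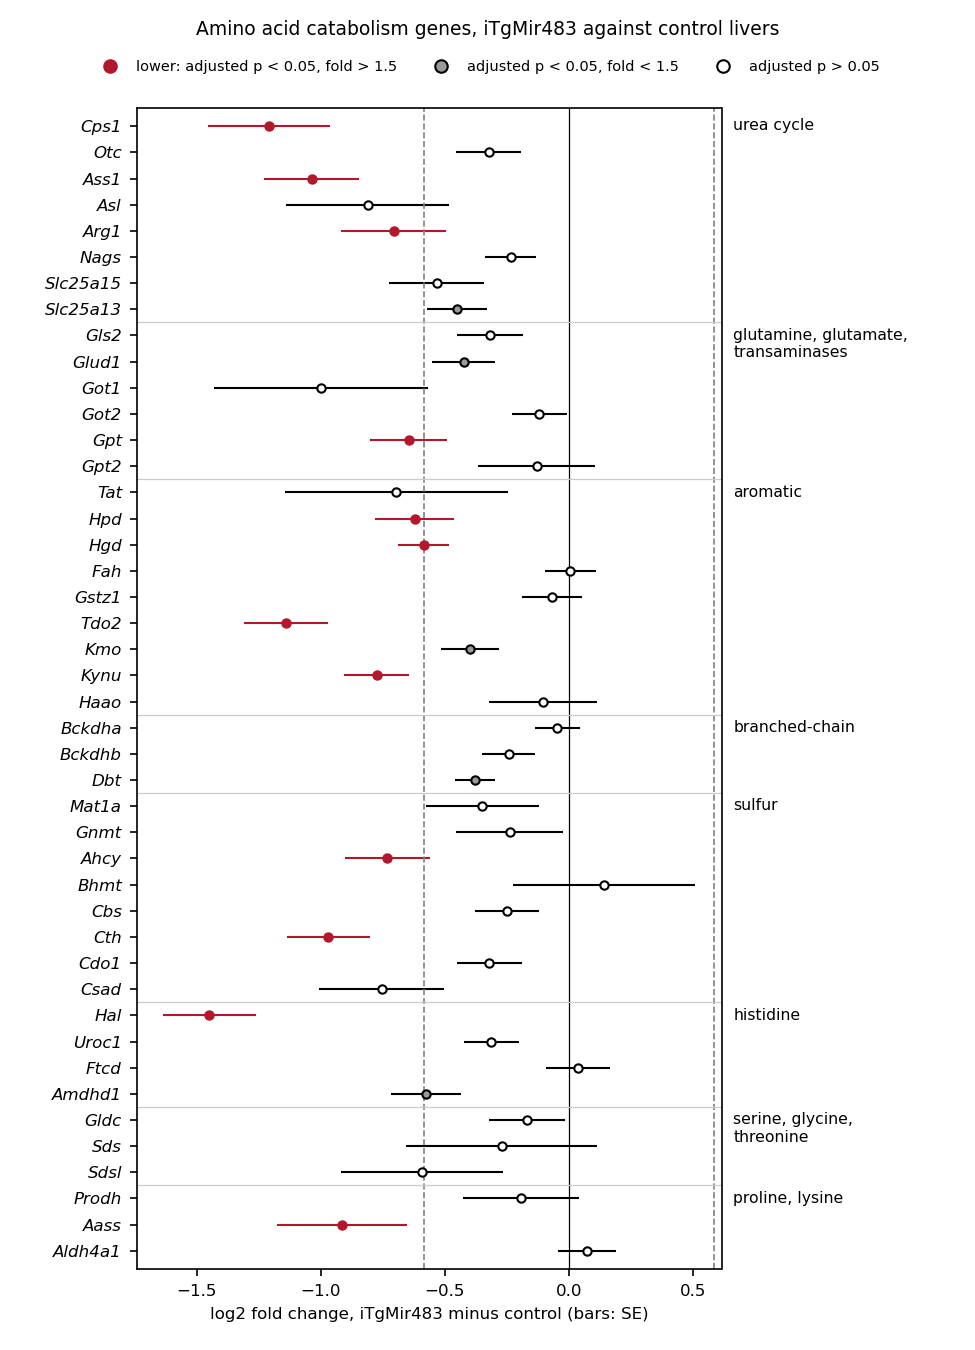
Log2 fold change (iTgMir483 minus control, x axis) with its standard error for the 44 tested genes, ordered by pathway, with filled red points for the 12 genes called lower, grey points for the 5 with an adjusted p under 0.05 and a smaller fold, and open points for the other 27; dashed lines mark a fold of 1.5. All red points lie left of the dashed line and no gene lies right of the one on the other side.

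Taken as a share of all scaled counts, the list made up 4.15% to 7.62% of each control library (median 5.94%) and 3.13% to 5.05% of each iTgMir483 library (median 4.15%). The ranges overlapped. The highest iTgMir483 liver on this sum, replicate 4, lay above the lowest 2 controls, replicates 1 and 2.

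The urea cycle was lower at its entry and at its argininosuccinate and arginase steps. Of its 8 genes 3 were lower (Cps1, Ass1 and Arg1), 0 were higher, and Slc25a13 passed the adjusted p alone, with a median log2 fold change of -0.62 over the 8. Cps1 (carbamoyl phosphate synthetase 1, chr1:67123026-67231259), which makes carbamoyl phosphate from ammonia in the mitochondrion, had 5497, 6781 and 9525 CPM as the lowest, median and highest control and 1823, 3168 and 4339 CPM in iTgMir483 livers. No iTgMir483 liver reached the lowest control, and the level fell by 1.21 ± 0.25 (SE) on the log2 scale, to 43.3% of the control level (edgeR adjusted p = 0.00476). Ass1 (argininosuccinate synthase, chr2:31470207-31520672), which joins citrulline to aspartate, had 1901, 2292 and 3363 CPM in controls and 791, 1130 and 1759 CPM in iTgMir483 livers. The groups again did not overlap, and Ass1 stood at 48.7% of control (log2 fold change -1.04 ± 0.19, edgeR adjusted p = 0.00274). Both calls held under all alternatives tried.

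Arg1 (arginase 1, chr10:24915221-24927484), which releases urea from arginine, had 1968, 2793 and 3562 CPM in controls and 1076, 1826 and 2213 CPM in iTgMir483 livers. Here 3 of the 6 iTgMir483 livers overlapped the control range, and the log2 fold change was -0.71 ± 0.21 (edgeR adjusted p = 0.0322). The Arg1 call was lost without any 1 of control replicates 3, 4, 5 or 6 or iTgMir483 replicates 3 or 5, with adjusted p between 0.0525 and 0.0693. Asl (argininosuccinate lyase), between Ass1 and Arg1 in the cycle, had a wider spread. Its levels were 736, 1662 and 2756 CPM in controls and 378, 975 and 1695 CPM in iTgMir483 livers (-0.81 ± 0.33, edgeR adjusted p = 0.100), and 2 iTgMir483 livers lay below all controls. Asl passed without iTgMir483 replicate 4 (-1.05, adjusted p = 0.0358), without control replicate 1 (-0.97, adjusted p = 0.0379) and by DESeq2 (adjusted p = 0.0428).

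Otc (ornithine transcarbamylase), the second mitochondrial step, did not pass. It had 323, 355 and 445 CPM in controls and 233, 277 and 367 CPM in iTgMir483 livers (-0.32 ± 0.13, edgeR adjusted p = 0.0986). Nags, which makes the N-acetylglutamate that activates carbamoyl phosphate synthetase, ranged from 62.6 to 94.4 CPM in controls but only from 61.3 to 63.2 CPM in iTgMir483 livers (-0.23 ± 0.10, adjusted p = 0.126). The 6 iTgMir483 livers thus sat at the bottom of the control range. An antisense gene shares 443 exonic bases with Nags, and without the counting strand its reads cannot be told apart from those of Nags. The mitochondrial carriers were intermediate. Slc25a15, the ornithine carrier, had 371, 585 and 650 CPM in controls and 263, 353 and 534 CPM in iTgMir483 livers (-0.53 ± 0.19, adjusted p = 0.0674), and passed without control replicate 1 (-0.62, adjusted p = 0.0314) or iTgMir483 replicate 4 (-0.66, adjusted p = 0.0229). Slc25a13 (citrin), which exports the aspartate used by Ass1, had 265, 320 and 436 CPM in controls and 224, 234 and 283 CPM in iTgMir483 livers (-0.45 ± 0.12, adjusted p = 0.0186), with a fold under 1.5.

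**Figure D2:**
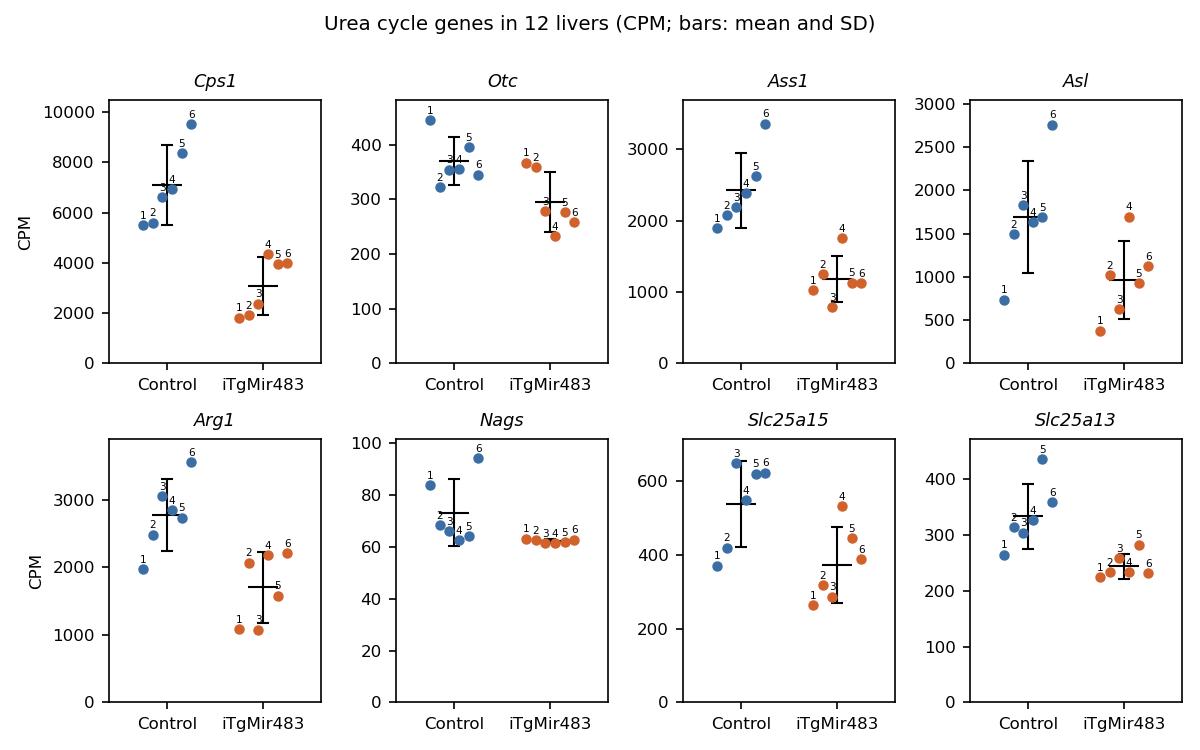
CPM (y axis, from 0) of the 8 urea cycle genes in each liver, numbered by replicate, with the mean and SD of each group of 6. The groups do not overlap for Cps1 and Ass1, and the 6 iTgMir483 livers lie between 61.3 and 63.2 CPM for Nags.

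Among the genes that handle glutamine, glutamate and transamination, 1 of 6 was lower and 0 were higher, with a median log2 fold change of -0.37. This was Gpt (alanine aminotransferase 1, chr15:76695716-76699686), which turns alanine into pyruvate, at 326, 386 and 598 CPM in controls and 210, 279 and 310 CPM in iTgMir483 livers. The groups did not overlap (-0.65 ± 0.15, edgeR adjusted p = 0.0109). Without control replicate 6, which was the highest, the adjusted p stayed at 0.0180 but the fold dropped under 1.5 (-0.51). Gpt2, its mitochondrial counterpart, had 513 to 1139 CPM in controls and 448 to 1083 CPM in iTgMir483 livers (-0.13 ± 0.24, adjusted p = 0.743).

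Glud1 (glutamate dehydrogenase), which frees ammonia from glutamate, passed the adjusted p alone. It had 950, 1021 and 1198 CPM in controls and 600, 741 and 1008 CPM in iTgMir483 livers (-0.42 ± 0.13, edgeR adjusted p = 0.0326), with 5 of 6 iTgMir483 livers below all controls. Gls2, the liver glutaminase, had 362 to 494 CPM in controls and 249 to 404 CPM in iTgMir483 livers (-0.32 ± 0.13, adjusted p = 0.112). Got2, the mitochondrial aspartate aminotransferase, had 334 to 510 CPM in controls and 343 to 417 CPM in iTgMir483 livers (-0.12 ± 0.11, adjusted p = 0.491). Got1, the cytosolic one, had 263, 625 and 811 CPM in controls and 79.3, 267 and 753 CPM in iTgMir483 livers (-0.999 ± 0.43, adjusted p = 0.121). A single liver, iTgMir483 replicate 4 at 753 CPM, stood far above the other 5, which ran from 79.3 to 286 CPM. Without it Got1 was lower (-1.53 ± 0.35, adjusted p = 0.00967).

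Aromatic amino acid breakdown held 4 of the genes called lower out of 9, 2 for tyrosine (Hpd and Hgd) and 2 for tryptophan (Tdo2 and Kynu), with 0 higher and a median log2 fold change of -0.59. Tdo2 (tryptophan 2,3-dioxygenase, chr3:81957090-81976202), which opens the indole ring and starts the kynurenine pathway, had 1394, 2367 and 2608 CPM in controls and 701, 1093 and 1157 CPM in iTgMir483 livers. The highest iTgMir483 liver lay below the lowest control, which was replicate 1 and stood apart from the other controls (2177 to 2608 CPM). Tdo2 stood at 45.4% of control (-1.14 ± 0.17, edgeR adjusted p = 0.000846). Kynu (kynureninase, chr2:43555329-43682715), which cleaves 3-hydroxykynurenine, had 149, 186 and 204 CPM in controls and 87.0, 99.9 and 144 CPM in iTgMir483 livers, also without overlap (-0.78 ± 0.13, adjusted p = 0.00167). Both calls held under all alternatives tried. Kmo (kynurenine 3-monooxygenase), the step between them, had 277 to 350 CPM in controls and 204 to 297 CPM in iTgMir483 livers and passed the adjusted p alone (-0.40 ± 0.12, adjusted p = 0.0293). Haao, which follows Kynu, did not pass, at 293 to 495 CPM in controls and 225 to 540 CPM in iTgMir483 livers (-0.11 ± 0.22, adjusted p = 0.774). Replicate 1 was the highest liver of each group for Haao, and without control replicate 1 its fold change was 0.02.

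In tyrosine breakdown Hpd and Hgd were lower, and the enzymes before and after them were not called. Tat (tyrosine aminotransferase), the first step and a classical glucocorticoid target, had 1480, 3369 and 5081 CPM in controls and 612, 1361 and 5229 CPM in iTgMir483 livers (-0.70 ± 0.45, edgeR adjusted p = 0.301). The highest value of all 12 livers was that of iTgMir483 replicate 4, whereas 4 other iTgMir483 livers lay below every control. Without that liver Tat was lower (-1.29 ± 0.34, adjusted p = 0.0219). Hpd (4-hydroxyphenylpyruvate dioxygenase, chr5:123171807-123182727), the second step, had 2925, 3434 and 4842 CPM in controls and 1966, 2270 and 3080 CPM in iTgMir483 livers, with replicate 4 again the highest and the only liver within the control range. Its log2 fold change was -0.62 ± 0.16 (adjusted p = 0.0157), and the fold dropped under 1.5 without control replicate 6 (-0.52) or iTgMir483 replicates 3 (-0.57) or 6 (-0.58).

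Hgd (homogentisate 1,2-dioxygenase, chr16:37580153-37632020), the third step, had 767, 824 and 923 CPM in controls and 479, 570 and 611 CPM in iTgMir483 livers, without overlap and with a narrow spread in both groups. Its log2 fold change of -0.59 ± 0.10 (edgeR adjusted p = 0.00210) was barely past the fold of 1.5, and it dropped under it without control replicates 3, 5 or 6 or iTgMir483 replicates 2 or 6, and with a minimum of 10 counts in every sample. The log2 fold change in those cases lay between -0.55 and -0.58, with adjusted p of 0.00606 or less. Neither of the last steps passed. Gstz1 (maleylacetoacetate isomerase) ran from 792 to 1015 CPM in controls and 685 to 972 CPM in iTgMir483 livers (-0.07 ± 0.12, adjusted p = 0.739), and Gstz1 shares 465 exonic bases with the antisense-strand gene Pomt2. Fah (fumarylacetoacetate hydrolase) ran from 575 to 725 CPM and from 600 to 766 CPM (0.01 ± 0.10, adjusted p = 0.971), and its sign flipped with DESeq2 and with the RLE scaling.

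Histidine breakdown held the largest fall of the list. Hal (histidine ammonia-lyase, chr10:93488768-93519304), which removes the amino group of histidine, had 435, 604 and 731 CPM in controls and 152, 209 and 353 CPM in iTgMir483 livers. All 6 iTgMir483 livers lay below all controls, and Hal stood at 36.6% of control (-1.45 ± 0.19, edgeR adjusted p = 0.000347), a call that held under all alternatives tried. Amdhd1 (imidazolonepropionase), the third step, lies 4033 bases from the end of Hal on the opposite strand, so that both genes end toward each other. It had 198, 214 and 250 CPM in controls and 114, 136 and 213 CPM in iTgMir483 livers, with 5 of 6 below all controls (-0.58 ± 0.14, adjusted p = 0.0124). Amdhd1 was just under the fold of 1.5 and passed it with RLE scaling (-0.59), DESeq2 (-0.59), limma-voom (-0.60) and 5 of the fits without 1 liver, the largest being -0.71 without iTgMir483 replicate 2.

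Uroc1 (urocanase), the second step, had 486, 545 and 668 CPM in controls and 413, 460 and 512 CPM in iTgMir483 livers (-0.31 ± 0.11, edgeR adjusted p = 0.0673). Ftcd, which passes the formimino group to tetrahydrofolate as the last step, had 502, 570 and 718 CPM in controls and 504, 586 and 791 CPM in iTgMir483 livers (0.04 ± 0.13, adjusted p = 0.865), where the 791 CPM of replicate 6 stood apart from the other 5. The ratio of the first to the last enzyme within each library does not depend on scaling. For Hal over Ftcd it was 0.838 to 1.30 in controls and 0.286 to 0.597 in iTgMir483 livers, without overlap. For Hpd over Fah, the second and last steps of tyrosine breakdown, it was 4.59 to 6.68 and 3.24 to 4.02, also without overlap. The ratios Tdo2 over Haao (2.82 to 8.46 and 1.78 to 4.98), Tat over Fah (2.54 to 7.93 and 0.901 to 6.83) and Cps1 over Arg1 (2.17 to 3.06 and 0.931 to 2.504) overlapped between the groups. These pairs were chosen after the values were seen and carry no test.

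**Figure D3:**
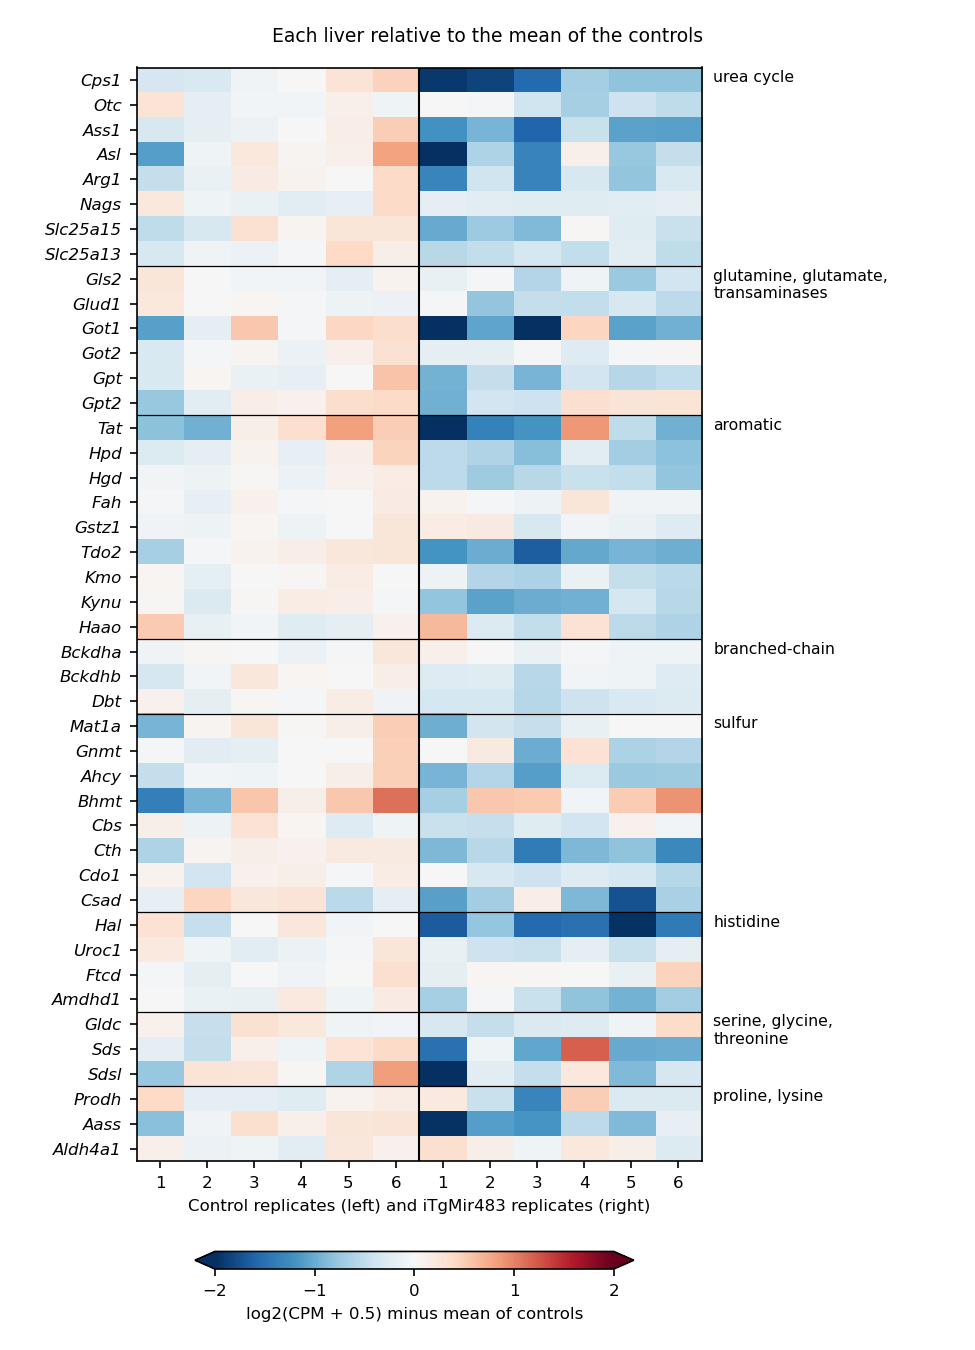
Log2(CPM + 0.5) of the 44 tested genes (rows, by pathway) in each liver (columns, by group and replicate) minus the mean of the 6 controls, from blue (lower) to red (higher), capped at 2 in each direction. Cps1, Ass1, Tdo2, Kynu, Gpt, Hgd, Dbt and Hal are below every control in each of the 6 iTgMir483 columns, and the column of iTgMir483 replicate 4 is red for Tat, Sds and Got1.

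Sulfur amino acid genes were lower for homocysteine formation and cysteine release. Of 8 genes 2 were lower (Ahcy and Cth) and 0 were higher, with a median log2 fold change of -0.33. Cth (cystathionine gamma-lyase, chr3:157894248-157925077), which releases cysteine, had 513, 848 and 891 CPM in controls and 299, 422 and 534 CPM in iTgMir483 livers. The lowest control was replicate 1, while the other 5 controls ran from 813 to 891 CPM, above every iTgMir483 liver. Cth stood at 51.1% of control (-0.97 ± 0.17, edgeR adjusted p = 0.00195). Ahcy (adenosylhomocysteinase, chr2:155059310-155074497), which splits S-adenosylhomocysteine, had 1033, 1415 and 2004 CPM in controls and 665, 864 and 1184 CPM in iTgMir483 livers, with only iTgMir483 replicate 4 within the control range (-0.73 ± 0.17, adjusted p = 0.00933). Both calls held under all alternatives tried.

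Csad (cysteine sulfinic acid decarboxylase), a step of taurine synthesis, lay at the threshold. It had 152, 230 and 298 CPM in controls and 66.4, 128 and 243 CPM in iTgMir483 livers (-0.75 ± 0.25, edgeR adjusted p = 0.0501). The highest iTgMir483 liver was replicate 3, and without it Csad was lower (-1.004 ± 0.21, adjusted p = 0.00786), as it was with RLE scaling (0.0459), DESeq2 (0.0154) and limma-voom (0.0379) as adjusted p. Csad shares 278 exonic bases with Zfp740 on the other strand. Cdo1 (cysteine dioxygenase), which makes its substrate, had 1635, 2247 and 2361 CPM in controls, the 1635 CPM of replicate 2 standing apart, and 1435, 1691 and 2118 CPM in iTgMir483 livers (-0.32 ± 0.13, adjusted p = 0.103). Cbs (cystathionine beta-synthase), the step before Cth, had 472 to 689 CPM in controls and 410 to 596 CPM in iTgMir483 livers (-0.25 ± 0.13, adjusted p = 0.192).

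The methyl donor genes did not pass. Mat1a (methionine adenosyltransferase), which makes S-adenosylmethionine, was the most abundant gene of the list per length, with 6273, 12710 and 16807 CPM in controls and 6067, 10037 and 12023 CPM in iTgMir483 livers (-0.35 ± 0.23, edgeR adjusted p = 0.308). Replicate 1 was the lowest liver of both groups. Gnmt (glycine N-methyltransferase) had 1564, 1811 and 2563 CPM in controls, the highest being replicate 6 and apart from the others, and 921, 1527 and 2239 CPM in iTgMir483 livers (-0.24 ± 0.22, adjusted p = 0.471). Bhmt (betaine-homocysteine methyltransferase) was the most spread among controls, at 1110 to 6117 CPM, with 1815 to 5335 CPM in iTgMir483 livers (0.14 ± 0.37, adjusted p = 0.822). Its sign turned negative without control replicate 1 (-0.04) or 2 (-0.01). Bhmt also shares 187 exonic bases with an antisense gene.

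For the branched-chain amino acids, none of the 3 subunit genes of the branched-chain ketoacid dehydrogenase complex was called, and their median log2 fold change was -0.24. Dbt, its E2 core, ran from 99.7 to 125 CPM in controls and from 75.9 to 92.7 CPM in iTgMir483 livers, so the groups did not overlap although the fold was small (-0.38 ± 0.08, edgeR adjusted p = 0.00649). Bckdhb (E1 beta) had 64.8 to 95.7 CPM in controls and 55.5 to 78.4 CPM in iTgMir483 livers (-0.24 ± 0.11, adjusted p = 0.127). Bckdha (E1 alpha) had 275 to 351 CPM and 274 to 321 CPM (-0.05 ± 0.09, adjusted p = 0.767). It shares 1171 exonic bases with B3gnt8 on the other strand.

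Lysine breakdown was lower at its first step, whereas proline, serine and glycine genes did not pass. Aass (aminoadipate-semialdehyde synthase, chr6:23072173-23132986), which starts lysine breakdown, had 404, 817 and 904 CPM in controls and 185, 364 and 648 CPM in iTgMir483 livers (-0.92 ± 0.26, edgeR adjusted p = 0.0257). Control replicate 1 was again apart from the other controls, which ran from 687 to 904 CPM and lay above every iTgMir483 liver. The Aass call was lost without control replicate 3 (adjusted p = 0.0508) or iTgMir483 replicate 3 (adjusted p = 0.0573). Prodh (proline dehydrogenase) had 212 to 327 CPM in controls and 99.1 to 352 CPM in iTgMir483 livers (-0.19 ± 0.23, adjusted p = 0.602). Aldh4a1, the step after it, had 181 to 245 CPM and 173 to 264 CPM (0.07 ± 0.12, adjusted p = 0.699). Aldh4a1 shares 1595 exonic bases with Gm21969 on the same strand.

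Sds (serine dehydratase), which turns serine into pyruvate, was divided among the iTgMir483 livers as Tat was. It had 162, 229 and 297 CPM in controls and 80.1, 113 and 521 CPM in iTgMir483 livers (-0.27 ± 0.39, edgeR adjusted p = 0.667). The 521 CPM of iTgMir483 replicate 4 exceeded all controls, and 4 other iTgMir483 livers lay below all of them. Without replicate 4 Sds was lower (-0.87 ± 0.23, adjusted p = 0.0195). Sdsl, a paralogous neighbour 3715 bases away on the other strand, was among the least expressed, at 10.5 to 32.6 CPM in controls and 4.08 to 20.9 CPM in iTgMir483 livers (-0.59 ± 0.33, adjusted p = 0.222). Gldc, the glycine decarboxylase of the glycine cleavage system, had 217 to 367 CPM and 214 to 381 CPM (-0.17 ± 0.16, adjusted p = 0.482). Tdh, a threonine dehydrogenase, had 0 counts in all 12 livers, which allows at most 3 counts a library, and was not tested.

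The genes that moved with iTgMir483 replicate 4 were compared with other signs that set this liver apart. Without it 17 genes of the list were lower, the further 5 being Asl, Got1, Sds, Slc25a15 and Tat, and the other 12 stayed lower. In the same liver Igfbp1, a liver gene that insulin represses, was at 1335 CPM, against 46.7 to 412 CPM in the other iTgMir483 livers and 61.0 to 255 CPM in controls. G6pc (glucose-6-phosphatase), also repressed by insulin, was at 1198 CPM against 325 to 890 CPM in controls, and Fgb was at 14495 CPM against 5428 to 8371 CPM in the other iTgMir483 livers. The macrophage marker sum was also highest in this liver, at 1345 CPM. Over the list of 12 fasting and feeding genes, 1 of 11 tested was called, Fasn (fatty acid synthase), which was higher (1.75 ± 0.38, edgeR adjusted p = 0.00649), and the summed levels overlapped, at 9455 to 15710 CPM in controls and 8708 to 14569 CPM in iTgMir483 livers. Replicate 1 was the lowest control for 19 of the 44 genes and the lowest iTgMir483 liver for 14, and leaving out both gave 13 lower, with Asl added. Replicate 3 was the lowest iTgMir483 liver for 15 genes, and 11 were lower without it. Control replicate 6 was the highest control for 24 genes, and 8 were lower without it. Leaving out both replicate 1 livers and iTgMir483 replicate 4, a choice made after the values were seen, gave 17. The part of feeding state in these values was not tested.

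**Figure D4:**
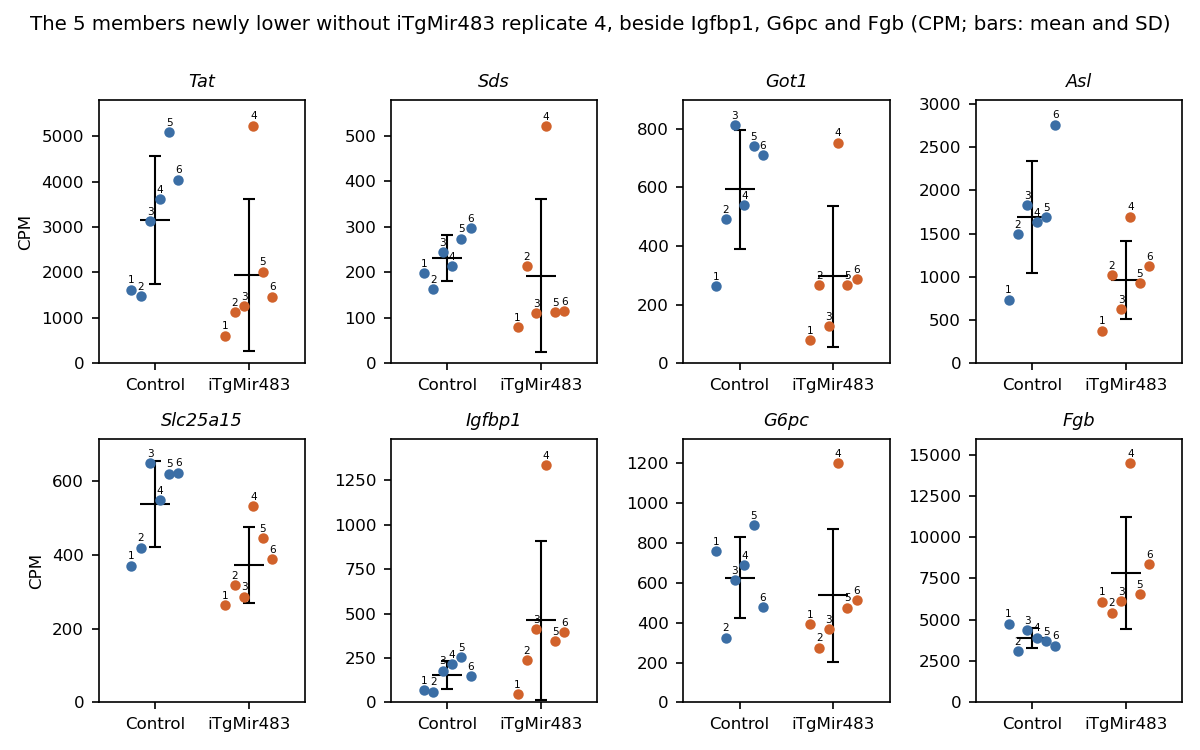
CPM (y axis, from 0) in each liver, numbered by replicate, with mean and SD of each group of 6, for the 5 genes that are called lower once iTgMir483 replicate 4 is left out and for Igfbp1, G6pc and Fgb. Replicate 4 is the highest iTgMir483 liver in all 8 panels.

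Expression per length, in CPM per kilobase of merged exons, spanned a wide range in controls. Mat1a was first at 3593, followed by Hpd at 1692, Gnmt at 1547, Tat at 1314, Cdo1 at 1304, Cps1 at 1277, Arg1 at 1246 and Ass1 at 1005 CPM per kilobase. Over all 45 genes the median control level was 159 CPM per kilobase, and Sdsl was the lowest of those tested at 12.96. The neighbours from Tat to Arg1 differed by less than the SD between controls, which was 285 CPM per kilobase for Cps1. In iTgMir483 livers Cps1 was at 553, Ass1 at 490 and Arg1 at 764 CPM per kilobase. Genes called lower were found at the top (Hpd, Cps1) and near the bottom (Kynu at 30.0) of this order. On the log2 scale the SD among iTgMir483 livers was larger than among controls for 30 of 44 genes, with medians of 0.29 and 0.26.

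**Figure D5:**
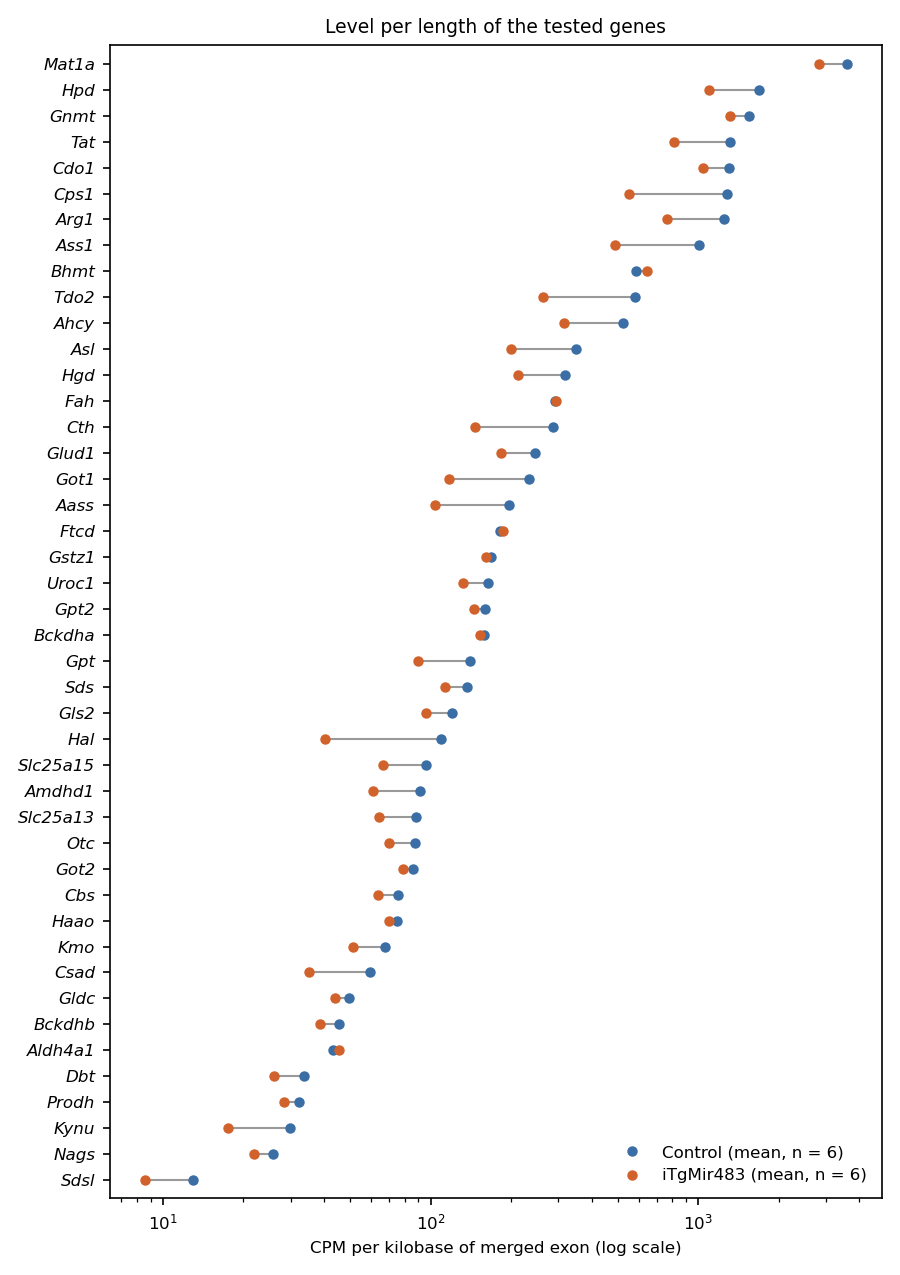
Mean level per length (CPM per kilobase of merged exon, log axis) of the 44 tested genes in control (blue) and iTgMir483 (orange) livers, 6 each, ordered by the control level. The orange point lies left of the blue one for 40 genes, by the widest distance for Hal.

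Promoter sequences, from 250 bases before to 50 after the start in RefSeq (GRCm38.p6), were found for 32 of the 45 genes, 7 of them among the 12 called lower. Motifs were searched on both strands. TATAAA was in 5 of the 32, namely Ftcd, Got2, Hal, Hgd and Tdo2 (13.6% of all 32851 promoters), and CCAAT in 17 (37.4%). The C/EBP motif TTGCNNAA was in 3, namely Aass, Hal and Hgd (10.8%). The glucocorticoid receptor palindrome ACANNNTGT was in 5, namely Bckdhb, Bhmt, Gnmt, Hal and Tdo2 (6.85%). The E-box CACGTG was in 4 (7.15%), the STAT5 motif TTCNNNGAA in 1 (8.30%), and the cAMP response element TGACGTCA (1.79%), the HNF4 motif CAAAGTCCA (0.475%) and the FOXA motif TGTTTAC (3.65%) in 0. The promoters of Hal and Tdo2 are shown, with the matches to TATAAA, TTGCNNAA and ACANNNTGT in capitals. These 2 had the smallest edgeR p among the genes called lower with an entry.
Hal promoter (chr10:93488518-93488817, plus strand): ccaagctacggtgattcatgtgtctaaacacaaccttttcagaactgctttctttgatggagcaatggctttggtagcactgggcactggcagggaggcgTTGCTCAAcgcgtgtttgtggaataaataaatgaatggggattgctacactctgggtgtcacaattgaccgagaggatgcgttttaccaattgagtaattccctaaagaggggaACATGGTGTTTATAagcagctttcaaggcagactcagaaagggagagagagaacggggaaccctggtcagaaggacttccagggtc
Tdo2 promoter (chr3:81975679-81975978, minus strand): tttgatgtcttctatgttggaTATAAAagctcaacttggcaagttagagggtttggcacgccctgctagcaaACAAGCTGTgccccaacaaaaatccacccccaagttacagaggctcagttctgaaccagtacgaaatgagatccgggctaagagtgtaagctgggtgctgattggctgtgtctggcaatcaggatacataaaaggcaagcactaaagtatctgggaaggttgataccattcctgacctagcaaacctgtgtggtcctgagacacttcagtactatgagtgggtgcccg
In Hal the TATAAA match is on the other strand and begins 28 bases before the start, the ACANNNTGT match begins 36 bases before it and overlaps the former, and the TTGCNNAA match begins 150 bases before it. In Tdo2 the TATAAA match begins 229 bases and the ACANNNTGT match 178 bases before the RefSeq start. The Tdo2 stretch shown lies inside the gene span given above (chr3:81957090-81976202). The RefSeq start of Tdo2 is therefore downstream of the 5′ end of that span. These are letter matches in a fixed window and not binding sites.

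Other genes of the same pathways stood on 7 further lists. Of their 95 genes 92 were tested, 7 were lower and 3 were higher, with a median log2 fold change of -0.09. The lower ones were Kyat1, Aadat and Maoa (aromatic list), Glul (nitrogen list), Ppm1k (branched-chain list), Prodh2 (serine, glycine, proline and lysine list) and Slc16a10 (transporters). Kyat1 and Aadat encode kynurenine aminotransferases, a side branch of the tryptophan pathway. Kyat1 had 58.7, 69.3 and 122 CPM in controls and 17.7, 23.3 and 34.1 CPM in iTgMir483 livers, a larger fall than any of the 45 genes (-1.63 ± 0.21, edgeR adjusted p = 0.000346), and Aadat fell from a median of 151 CPM to 78.2 CPM (-0.86 ± 0.14, adjusted p = 0.00138). Maoa (monoamine oxidase A), which oxidises aromatic amines, had 11.4 to 15.5 CPM in controls and 5.64 to 9.10 CPM in iTgMir483 livers (-0.84 ± 0.12, adjusted p = 0.000762).

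Glul (glutamine synthetase), which captures ammonia in pericentral hepatocytes, had 956, 1056 and 1216 CPM in controls and 565, 635 and 952 CPM in iTgMir483 livers, without overlap (-0.62 ± 0.15, edgeR adjusted p = 0.00974). Oat (ornithine aminotransferase), from the same zone, was at 1592 to 2426 CPM and 1427 to 3104 CPM (-0.01 ± 0.17, adjusted p = 0.963). Of the 10 periportal genes 4 were lower (Cyp2f2, Hal, Arg1 and Ass1, the last 3 of them urea cycle or histidine genes already described) and 0 were higher. Of the 10 pericentral genes 1, Glul, was lower and 0 were higher. The summed periportal levels were 10957 to 15325 CPM in controls and 5900 to 12492 CPM in iTgMir483 livers, and the summed pericentral levels were 13188 to 16553 and 10105 to 14231 CPM, so both sums overlapped between groups.

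Ppm1k, the phosphatase that activates the branched-chain ketoacid dehydrogenase, had 68.5 to 109 CPM in controls and 38.7 to 84.8 CPM in iTgMir483 livers (-0.62 ± 0.19, edgeR adjusted p = 0.0389). Prodh2, which oxidises hydroxyproline, had 231 to 319 CPM and 133 to 207 CPM (-0.59 ± 0.12, adjusted p = 0.00533). Slc16a10, an exporter of aromatic amino acids, had 124 to 214 CPM and 65.2 to 166 CPM (-0.64 ± 0.21, adjusted p = 0.0443). The genes that were higher included a transporter and a methyltransferase. Slc1a4, a neutral amino acid transporter, ran from 1.54 to 4.53 CPM in controls and from 9.35 to 21.5 CPM in iTgMir483 livers, without overlap (2.36 ± 0.26, adjusted p = 0.000119). Gamt, which methylates guanidinoacetate to creatine, had 37.7 to 79.7 CPM and 72.7 to 165 CPM (0.91 ± 0.21, adjusted p = 0.00933).

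Agxt (alanine-glyoxylate aminotransferase) and the amino acid transporter Slc38a2 did not pass, with log2 fold changes of -0.17 ± 0.21 (edgeR adjusted p = 0.621) and 0.03 ± 0.24 (adjusted p = 0.954). None of 13 regulators of these genes was called or passed the adjusted p. At an unadjusted p under 0.05 edgeR gave 2 lower (Creb1 and Hnf4a) and 1 higher (Atf4). The 13 include the hepatocyte factors Hnf4a, Cebpa and Foxa2, the glucocorticoid receptor Nr3c1 and the glucagon receptor Gcgr. Hnf4a had 768 to 1127 CPM in controls and 451 to 1008 CPM in iTgMir483 livers (-0.37 ± 0.17, adjusted p = 0.148). For Hnf4a 4 iTgMir483 livers lay below all controls. Gcgr had 241 to 298 CPM in controls and 227 to 279 CPM in iTgMir483 livers (-0.05 ± 0.10, adjusted p = 0.773). Igf1, which encodes insulin-like growth factor 1, had 315, 377 and 576 CPM in controls and 91.5, 134 and 212 CPM in iTgMir483 livers (-1.51 ± 0.20, adjusted p = 0.000371), a fall close in size to that of Hal.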

How the data were processed

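Total RNA from 12 livers was made into poly(A) libraries by the authors, whose deposited values are raw read counts per Ensembl gene, from STAR alignments to GRCm38. The strand column used for counting is not given in the sources used here. The 45 genes, the other gene lists and the tests were chosen with earlier results of these data known. Groups and replicate numbers came from the sample titles, and no label names a batch. The titles number the samples of a group separately without naming litters, so p-values measure the spread between these samples. The descriptions also carry a number series shared by both groups, whose meaning is not given. Floors cover counting error only.

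Symbols, positions, lengths and 3′ UTRs were taken from GENCODE M21 (GRCm38), in which 55141 of 55401 identifiers had a symbol. The table had 0 rows naming no gene and 0 columns of no sample. Genes were filtered with filterByExpr (13205 kept), scaled by TMM and compared between the 2 groups by the quasi-likelihood test of edgeR 4.0.16 in R 4.3.3 (voom from limma 3.58.1 served as an alternative) without covariates, with Benjamini-Hochberg adjustment over all genes tested. A call needs an adjusted p under 0.05 and a fold over 1.5. The SE of a log2 fold change is its size divided by the square root of F, and CPM uses the TMM library sizes. The test was checked on simulated counts. Library pairs differed beyond counting noise (lowest chi-square per gene 15.9).

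All 45 genes are named in the text. Of the further pathway lists, the called genes (at most 6 in each direction) and Glul, Oat, Agxt, Gcgr and Slc38a2 are named (some items that this rule covers are not reported here), and of the fasting, zonation and cell type lists the called genes and summed levels. Alternatives were RLE scaling, no filter, at least 10 counts in every sample, a replicate block, DESeq2 1.42.0, limma-voom, the adjusted p alone, each library left out, and both replicate 1 libraries left out.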

Additional observations from a re-analysis of the deposited data

Results flagged for a closer look

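In each group of 6 livers the gap between the highest or lowest liver and its nearest neighbour was divided by the range of the group, on log2(CPM + 0.5), and compared with Dixon's 95% critical value for 6 samples. Of 88 such groups, 7 exceeded it, where chance gives 4.4. Control replicate 1 was the low liver in 4 of them. The ratio was 0.833 for Cth (513 CPM, the other controls being at 813 to 891 CPM), 0.712 for Tdo2 (1394 against 2177 to 2608 CPM), 0.670 for Mat1a (6273 against 12135 to 16807 CPM) and 0.659 for Aass (404 against 687 to 904 CPM). Leaving out control replicate 1 kept Cth, Tdo2 and Aass lower. Gnmt had a ratio of 0.670 from a high control replicate 6 (2563 against 1564 to 1841 CPM), and Cdo1 of 0.644 from a low control replicate 2 (1635 against 2071 to 2361 CPM). Ftcd had a ratio of 0.645 from a high iTgMir483 replicate 6 (791 against 504 to 591 CPM).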

How the results depend on the processing

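The count of genes of the list called lower was 12 and ranged from 8 (without control replicate 6) to 17 (without iTgMir483 replicate 4) when 1 library was left out, and was 14 with RLE scaling, 14 without a filter, 11 with at least 10 counts in every sample, 15 with DESeq2, 14 with limma-voom and 17 on the adjusted p alone. Of the 12, 7 kept their call under all 21 alternatives (Cps1, Ass1, Tdo2, Kynu, Ahcy, Cth and Hal), and 12 genes not called were called under at least 1. The number called higher was 0 under all of them. The median log2 fold change of the list lay between -0.47 and -0.35. Of the further pathway genes, 3 were called higher, 5 with DESeq2, 5 without both replicate 1 libraries and iTgMir483 replicate 4 (added after the data were seen), and 2 to 5 with 1 library left out. The 7 called lower became 12 on the adjusted p alone, 11 without those 3 libraries, 6 to 8 under the other settings and 4 to 7 with 1 library left out. It was 4 without control replicate 5 or iTgMir483 replicate 2 or 6. The cause was not tested.

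Signs turned for 5 genes, none of them called. Fah (0.01) was -0.0052 with RLE scaling, -0.0117 without a filter, -0.0051 with DESeq2, -0.0114 without both replicate 1 libraries, -0.0801 without those and iTgMir483 replicate 4, and -0.0438 to 0.0369 with 1 library left out. Aldh4a1 (0.07) was -0.0122 and Haao -0.374 without the 3 libraries. With 1 library left out Aldh4a1 ran from 0.0180 to 0.136, Haao from -0.308 to 0.0160, Bhmt from -0.0409 to 0.393 and Ftcd from -0.0589 to 0.103. Per length, the median control level was 165 CPM per kilobase on the longest transcript against 159.

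Adding a replicate block gave 18 lower genes of the list, with Amdhd1, Asl, Csad, Got1, Sdsl and Tat added and none lost. The numbers were not taken to pair the livers, since the correlation of same-numbered deviations was 0.440 for replicate 1, 0.167 for replicate 5 and 0.034 to 0.053 for the other 4. On the second principal component of all tested genes (16.0% of the variance), control replicate 1 was at 46.4 and iTgMir483 replicate 1 at 40.7. All other livers were at -16.7 to 2.89. What sets the replicate 1 livers apart was not tested.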
